A study of Mus musculus with 17 samples.

Results

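The colony-stimulating factors and their receptors were followed in mouse lung after focal irradiation. They were 9 of the 45777 genes in the count table: the ligands Csf1, Csf2, Csf3 and Il34, and the receptor genes Csf1r, Csf2ra, Csf2rb, Csf2rb2 and Csf3r. They were taken by their symbols and not by a cut on measured values, but with earlier results of these data known. All 9 passed the filter on low counts that left 22052 genes tested.

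The study asked how a single dose of 65 Gy compared with 75 Gy in a mouse model of radiation-induced lung injury. Male wild-type C57BL/6 mice, 6 weeks old on arrival and given 1 week to acclimatise, received 65 Gy or 75 Gy to the left lung from an image-guided irradiator or no radiation. Messenger RNA of left lung tissue was sequenced 2 and 6 weeks later. The non-irradiated control, 65 Gy and 75 Gy groups held 3 libraries each at both times, except that 65 Gy at 6 weeks held 2. All groups share the strain, sex and genotype. Per the study's methods, the RNA of irradiated lungs came from their lesions, so the radiation and the piece of lung that was sampled cannot be told apart in a comparison with controls. The labels do not say whether each library came from 1 animal, so the p-values measure the spread between libraries. Totals ran from 46764569 to 66797879 counts per library with a median of 57608149. In whole tissue, fewer cells of a type and less RNA per cell cannot be told apart, and this holds for every level given here.

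Colony-stimulating factors are secreted proteins that sustain, expand and activate myeloid cells. Csf2 encodes GM-CSF, which in the lung comes largely from alveolar epithelium and lymphoid cells and drives alveolar macrophages to mature and to clear surfactant. Its receptor pairs an alpha chain, Csf2ra, with the beta chain Csf2rb, which the receptors for IL-3 and IL-5 also use, while mice carry a further gene, Csf2rb2, whose product serves IL-3 only. Csf1 (M-CSF) and Il34 both bind Csf1r on monocytes and macrophages, and Csf3 (G-CSF) binds Csf3r, which neutrophils carry.

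Csf2rb and Csf2rb2 lie side by side on chromosome 15 on opposite strands and are close copies, which bears on how reads were shared out between them. Their coding sequences of 2688 and 2634 bases matched at 95.24% of 2628 aligned positions. Of the 100-base windows of Csf2rb, 11.05% were found letter for letter in Csf2rb2, and 11.28% of those of Csf2rb2 were found in Csf2rb. Over 1208 aligned 100-base stretches lying within single exons, the median number of differing bases was 3, the largest was 16, and 265 stretches had 0 differences. Shown here are 3 of these stretches, from GENCODE transcripts on GRCm38.p6 and each as long as a read of the study, which was 100 bases. Capitals mark bases that differ between the genes. The first pair, Csf2rb at chr15:78348577-78348676 on the plus strand and Csf2rb2 at chr15:78284772-78284871 on the minus strand, has no difference, so a read from it could come from either gene.
Csf2rb, no difference: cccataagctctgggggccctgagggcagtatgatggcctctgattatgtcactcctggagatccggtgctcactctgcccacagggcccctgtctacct
Csf2rb2, no difference: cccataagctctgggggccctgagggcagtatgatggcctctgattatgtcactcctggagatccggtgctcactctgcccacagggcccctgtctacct
The second pair has the median number of differences, with Csf2rb at chr15:78338809-78338908 and Csf2rb2 at chr15:78294423-78294522.
Csf2rb, median: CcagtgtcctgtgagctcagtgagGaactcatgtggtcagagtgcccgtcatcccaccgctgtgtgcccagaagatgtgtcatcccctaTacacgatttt
Csf2rb2, median: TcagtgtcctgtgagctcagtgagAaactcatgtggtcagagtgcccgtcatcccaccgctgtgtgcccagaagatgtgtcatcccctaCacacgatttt
The third pair has the largest number, with Csf2rb at chr15:78338887-78338986 and Csf2rb2 at chr15:78294345-78294444.
Csf2rb, largest: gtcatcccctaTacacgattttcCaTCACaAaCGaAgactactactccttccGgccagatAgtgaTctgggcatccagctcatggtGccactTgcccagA
Csf2rb2, largest: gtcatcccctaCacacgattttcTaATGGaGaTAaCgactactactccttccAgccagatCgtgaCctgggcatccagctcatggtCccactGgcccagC
Of these stretches 44.21% had under 3 differing bases, while most 100-base windows were not shared letter for letter. Exons outside the coding sequence and the pairing of reads were not taken into account. The split of counts between Csf2rb and Csf2rb2 is thus uncertain, to an extent that was not measured. Their fold changes are therefore also given for the summed counts.

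Levels are CPM, that is, counts relative to the library total after TMM scaling, and levels of different genes are compared only as CPM per kilobase of exon. In the 2-week controls, Csf3r at 41.2 ± 7.26 and Csf1r at 35.3 ± 2.41 CPM per kilobase (SD, n = 3) were the highest, and their libraries overlapped. Csf2ra followed at 25.3 ± 1.57, apart from both neighbours. Csf2rb at 11.5 ± 0.739, Csf1 at 10.5 ± 1.57 and Il34 at 8.18 ± 1.38 came next, and each overlapped with its neighbour in this order. Csf2rb2 at 3.70 ± 0.598 and Csf2 at 2.48 ± 0.315 stood apart from each other and from Il34, and Csf3 had no counts. In the 75 Gy libraries at 6 weeks the order was different, with Csf2ra at 58.0 ± 5.52 and Csf1r at 50.7 ± 0.839 CPM per kilobase first, not overlapping, then Csf2rb at 29.8 ± 1.88. Csf3r at 18.6 ± 3.59 and Csf2rb2 at 14.1 ± 1.11 overlapped there, and Il34 at 10.04 ± 0.953, Csf1 at 8.25 ± 0.393 and Csf2 at 1.86 ± 0.466 stood apart in turn. In the 6-week controls Csf3r at 51.6 ± 8.21, Csf1r at 36.3 ± 0.987 and Csf2ra at 30.7 ± 0.732 CPM per kilobase came first, without overlap. By mean level, the G-CSF receptor gene was thus first in the controls of both times, at 2 weeks level with Csf1r within the spread. The GM-CSF receptor alpha chain was first 6 weeks after 75 Gy.

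**Figure D1:**
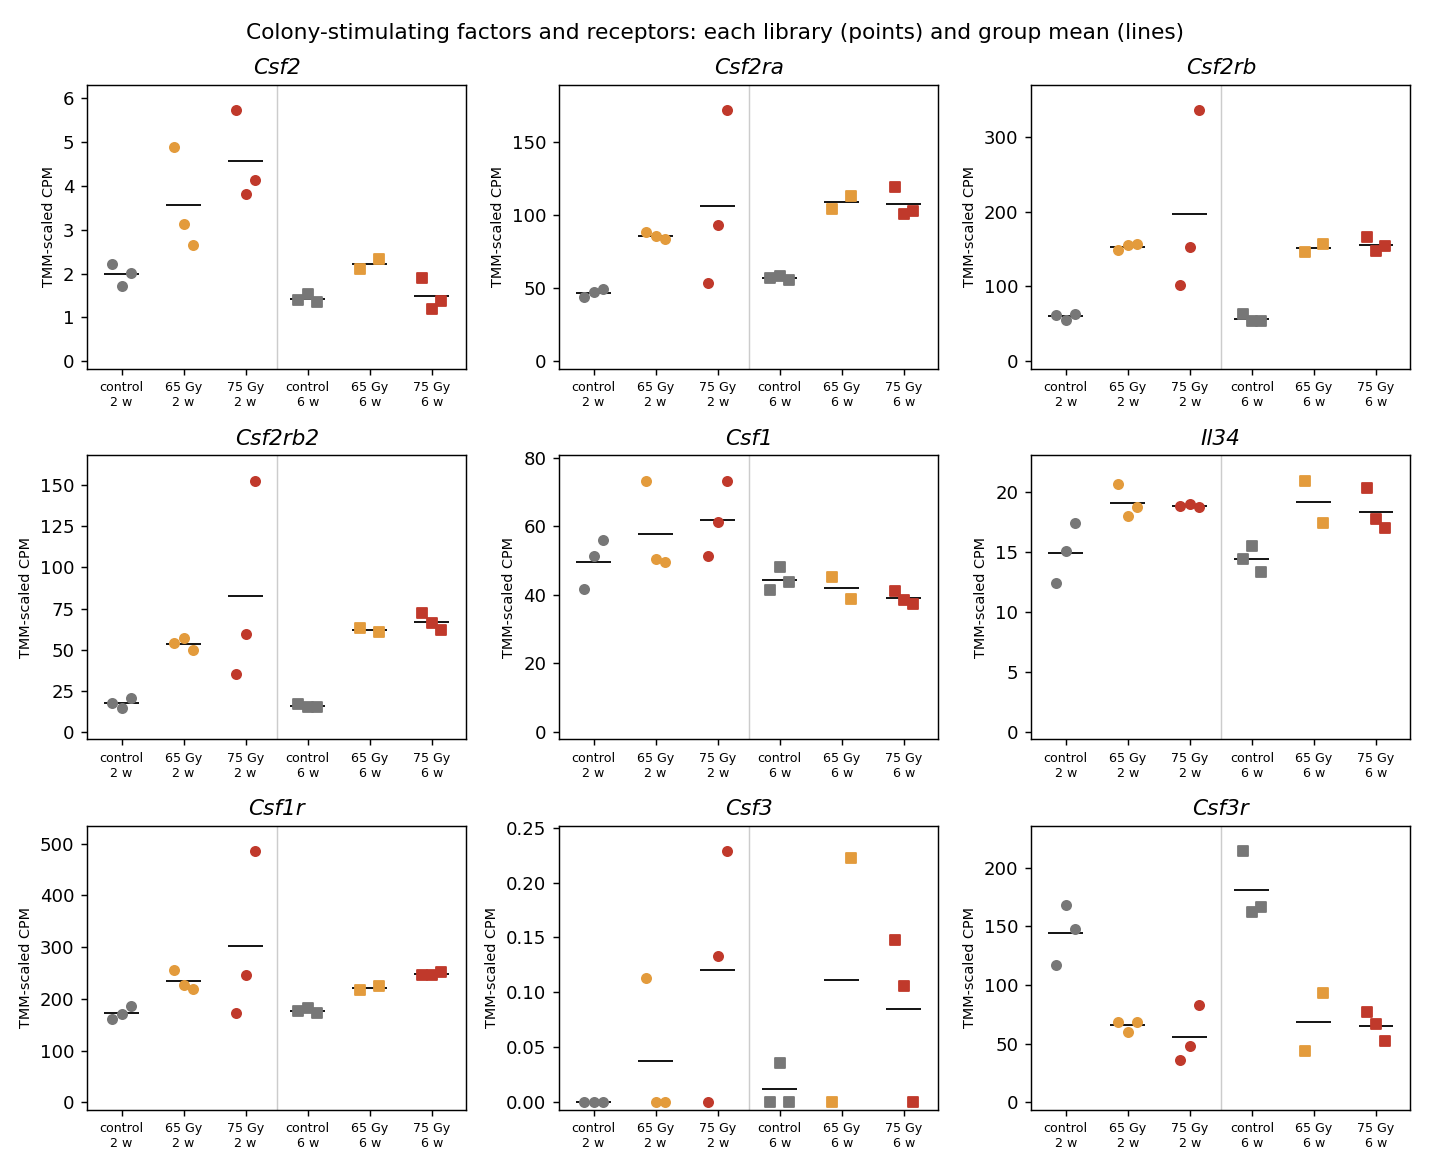
Each panel plots 1 gene, with TMM-scaled CPM on a linear axis, points for single libraries and a line for the group mean, over control, 65 Gy and 75 Gy groups at 2 weeks (circles) and 6 weeks (squares). Both beta-chain genes lie above the controls and Csf3r below them in every irradiated group, while Csf2 overlaps with its controls after 75 Gy at 6 weeks.

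Calls come from edgeR's quasi-likelihood test over all tested genes and need both an adjusted p no higher than 0.05 and a log2 fold change of 1 or more in size. Csf2rb and Csf2rb2 rose and Csf3r fell in all 4 comparisons of irradiated with control lungs. After 75 Gy at 2 weeks, Csf2 and Csf2ra rose as well. Both doses at a given time were compared with the same 3 control libraries. For 75 Gy at 2 weeks, 4 of the 9 members were called higher and 1 lower, beside 5.67% and 2.07% of all tested genes. For 75 Gy at 6 weeks, 2 were higher and 1 lower, beside 7.28% and 3.13%. For 65 Gy, 2 were higher and 1 lower at 2 weeks, beside 3.47% and 0.88%, and again 2 and 1 at 6 weeks, beside 4.34% and 0.943%. In all but the first of these comparisons, the members called higher were the close copies Csf2rb and Csf2rb2, whose counts are not independent. By the adjusted p alone, the members past it were 6, 5, 5 and 4 in that order, beside 22.3%, 36%, 11% and 14.7% of all genes. Csf3 is left out of the medians that follow, since it had 0 counts in all 2-week controls and at most 13 in any library. The median log2 fold change of the 8 other members was 0.99 for 75 Gy at 2 weeks, where the median of all tested genes was 0.000844. It was 0.42 for 75 Gy at 6 weeks, 0.64 for 65 Gy at 2 weeks and 0.53 for 65 Gy at 6 weeks, against medians of all genes of 0.04, -0.0085 and 0.0081.

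Members whose irradiated libraries were all above the control libraries numbered 5 for 75 Gy at 2 weeks, beside 15.5% of all tested genes, and 5 for 75 Gy at 6 weeks, beside 29.4%. For 65 Gy they numbered 6 at 2 weeks, beside 15.9%, and 6 at 6 weeks, beside 28.2%. Members entirely below numbered 1, 2, 1 and 1, beside 14.8%, 27.7%, 13.5% and 28.1%. At 65 Gy at 6 weeks the 2 irradiated libraries make such a separation easier to reach. In that comparison the 6 members above were Csf2, the alpha chain, both beta-chain genes, Csf1r and Il34.

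**Figure D2:**
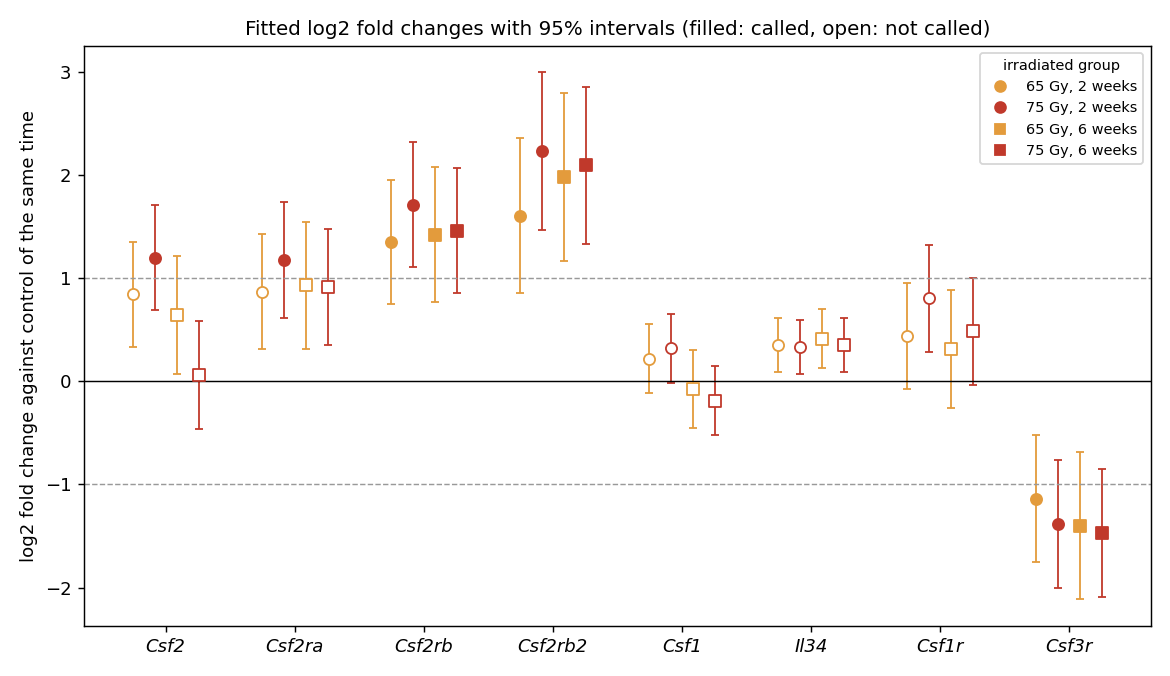
Points are fitted log2 fold changes against the control of the same time, bars are 95% intervals, circles are 2 weeks and squares 6 weeks, and filled points were called. Csf3 is left out because it had too few counts. Csf2rb, Csf2rb2 and Csf3r have filled points in all 4 comparisons, and Csf2 and Csf2ra only for 75 Gy at 2 weeks.

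The ligand Csf2 (gene 12981, chromosome 11, 54247270 to 54249899, minus strand) was low but counted in every library, with 67 counts in the lowest. Its levels in the 2-week controls were 2.21, 1.71 and 2.02 CPM. After 65 Gy at 2 weeks they were 4.87, 3.14 and 2.65 CPM, and after 75 Gy 5.73, 3.81 and 4.13 CPM, so both irradiated groups lay wholly above the controls. After 75 Gy Csf2 rose 2.30-fold, or by 1.199 on the log2 scale (adjusted p = 0.00264, SE 0.24). Without library 3132, which held the highest value, the log2 fold change was 0.99 (adjusted p = 0.0109), just under the fold limit. After 65 Gy the log2 fold change was 0.84 (SE 0.24), past the adjusted p at 0.0358 but not the fold limit, and without library 3131 it was 1.01 and called.

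The 6-week levels of Csf2 were different. Controls held 1.39, 1.53 and 1.34 CPM and the 65 Gy libraries 2.11 and 2.34 CPM, with no overlap. The 75 Gy libraries held 1.90, 1.19 and 1.37 CPM and lay around the controls. The log2 fold changes were 0.64 (SE 0.27, adjusted p = 0.123) after 65 Gy and 0.06 (SE 0.25, adjusted p = 0.865) after 75 Gy. The 95% interval for 75 Gy ran from -0.46 to 0.59. The difference between the 75 Gy effects at 6 and 2 weeks was -1.14 (SE 0.34, unadjusted p = 0.00476), which did not pass the adjustment over all genes (adjusted p = 0.163).

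The GM-CSF receptor alpha chain gene Csf2ra (gene 12982, chromosome 19, 61217191 to 61228461, minus strand) was higher in every irradiated library than in any control of the same time. At 2 weeks the controls held 43.9, 47.5 and 49.7 CPM, the 65 Gy libraries 88.7, 85.6 and 83.6 CPM, and the 75 Gy libraries 53.7, 93.5 and 172 CPM. The 65 Gy libraries were close to one another and the 75 Gy libraries were widely spread, from just above the controls to the highest level of any library. Csf2ra rose after 75 Gy by 1.18 on the log2 scale (SE 0.26, adjusted p = 0.00519). This call rests on library 3134: without it the log2 fold change was 0.65 (adjusted p = 0.0137). In a fit of the 2 groups compared alone the value was 1.18 with an adjusted p of 0.0948. In the 6-week groups the controls held 57.4, 58.5 and 55.8 CPM, the 65 Gy libraries 105 and 113 CPM, and the 75 Gy libraries 120, 101 and 103 CPM. The log2 fold changes of 0.87 (65 Gy, 2 weeks), 0.93 (65 Gy, 6 weeks) and 0.91 (75 Gy, 6 weeks) passed the adjusted p at 0.046, 0.0423 and 0.0138 but stayed under the fold limit.

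The shared beta chain gene Csf2rb (gene 12983, chromosome 15, 78325800 to 78351001, plus strand), which carries the signal of the GM-CSF receptor into the cell, rose in all 4 comparisons. Its levels at 2 weeks were 62.0, 55.8 and 62.9 CPM in controls, 149, 155 and 156 CPM after 65 Gy, and 102, 153 and 336 CPM after 75 Gy. At 6 weeks they were 62.9, 53.3 and 53.4 CPM in controls, 146 and 157 CPM after 65 Gy, and 166, 147 and 154 CPM after 75 Gy. Irradiated and control libraries did not overlap at either time, and apart from the 75 Gy group at 2 weeks the irradiated libraries were close together. The log2 fold changes for 65 and 75 Gy were 1.35 (SE 0.28, adjusted p = 0.00713) and 1.71 (SE 0.28, adjusted p = 0.000791) at 2 weeks. At 6 weeks they were 1.42 (SE 0.31, adjusted p = 0.00729) and 1.46 (SE 0.28, adjusted p = 0.00124). Without library 3134 the 75 Gy value at 2 weeks was 1.08 and still called.

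The copy Csf2rb2 (gene 12984, chromosome 15, 78282507 to 78305721, minus strand), the IL-3-specific beta chain, had the largest log2 fold changes of the members with counts in all libraries. At 2 weeks the controls held 17.7, 14.6 and 20.3 CPM, the 65 Gy libraries 53.9, 56.8 and 49.5 CPM, and the 75 Gy libraries 35.1, 59.5 and 153 CPM. At 6 weeks the controls held 16.96, 14.9 and 15.1 CPM, the 65 Gy libraries 62.9 and 60.6 CPM, and the 75 Gy libraries 72.2, 66.4 and 61.7 CPM. No irradiated library came near a control library of its time. The rises were 3.04-fold and 4.70-fold at 2 weeks and 3.94-fold and 4.27-fold at 6 weeks for 65 and 75 Gy, with adjusted p values of 0.00938, 0.000614, 0.00372 and 0.000511. Without library 3134 the 75 Gy log2 fold change at 2 weeks fell from 2.23 to 1.43 and was still called. With the counts of both genes summed, the log2 fold changes were 1.41 and 1.85 at 2 weeks and 1.56 and 1.62 at 6 weeks, each called.

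The share of Csf2rb2 among the counts of both genes was higher in irradiated lungs. It was 22.5% ± 1.82 in controls (SD, n = 3), 25.8% ± 1.52 after 65 Gy and 28.3% ± 2.83 after 75 Gy at 2 weeks. At 6 weeks it was 21.7% ± 0.411 in controls, 29.0% ± 1.54 after 65 Gy (n = 2) and 30.0% ± 1.29 after 75 Gy. At 2 weeks the lowest 65 Gy library, at 24.1%, lay just under the highest control library, at 24.4%, and at 6 weeks irradiated and control libraries did not overlap. The irradiated libraries exceeded the controls by 6.23 percentage points as a mean of both times. An exact permutation test of the labels within each time gave p = 0.000425 (two-sided, 4704 arrangements, 0.000213 being the smallest it allows). This test was chosen after the values were seen, and without each library in turn the difference was 5.81 to 6.72 points. How reads that match both genes were assigned is not given in the sources used here, and its part in the share was not tested.

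**Figure D3:**
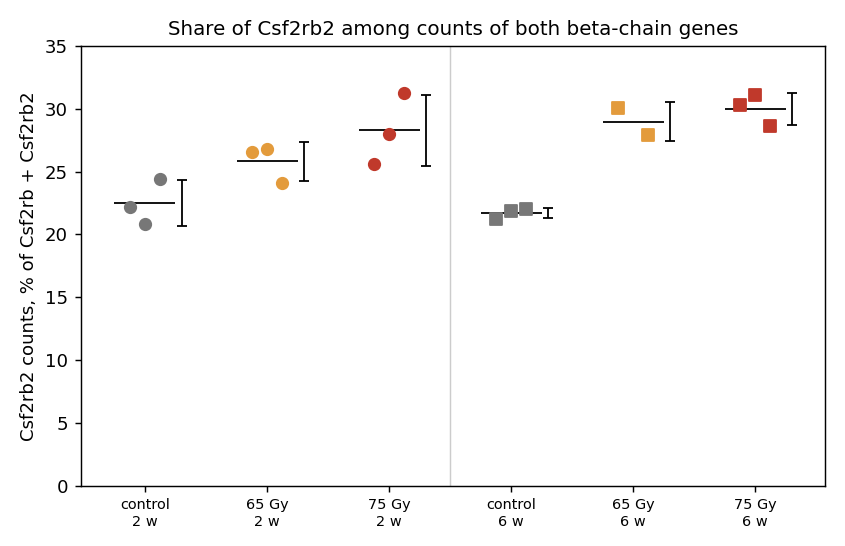
Points are single libraries, lines are group means and bars are SD, with the share of Csf2rb2 in percent of Csf2rb and Csf2rb2 counts on an axis from 0. Control groups average 22.5% and 21.7%, and the irradiated groups average 25.8% to 30.0%.

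The receptor for M-CSF and IL-34, Csf1r (gene 12978, chromosome 18, 61105572 to 61131139, plus strand), is the growth and survival receptor of monocytes and macrophages. Its levels at 2 weeks were 162, 170 and 185 CPM in controls, 256, 226 and 219 CPM after 65 Gy, and 173, 245 and 486 CPM after 75 Gy. At 6 weeks they were 177, 182 and 173 CPM in controls, 216 and 225 CPM after 65 Gy, and 246, 245 and 253 CPM after 75 Gy. Only the 75 Gy group at 2 weeks overlapped with its controls, through library 3132. The log2 fold change for 75 Gy at 2 weeks was 0.80 (SE 0.24, adjusted p = 0.0269), under the fold limit. It was 1.08 and called without library 3132, and 0.28 (adjusted p = 0.135) without library 3134. The other comparisons gave 0.44, 0.32 and 0.48 for 65 Gy at 2 weeks, 65 Gy at 6 weeks and 75 Gy at 6 weeks, with adjusted p values of 0.283, 0.472 and 0.132.

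Csf1 (gene 12977, chromosome 3, 107741048 to 107760469, minus strand), made by stromal and many other cells, was not called in any comparison. Its 2-week levels were 41.6, 51.2 and 56.2 CPM in controls, 73.4, 50.6 and 49.6 CPM after 65 Gy, and 51.5, 61.3 and 73.1 CPM after 75 Gy, with overlap at both doses. At 6 weeks they were 41.4, 48.0 and 43.6 CPM in controls, 45.1 and 38.8 CPM after 65 Gy, and 41.0, 38.5 and 37.4 CPM after 75 Gy, the last group lying wholly below its controls. The log2 fold changes for 75 Gy were 0.32 at 2 weeks (95% interval -0.02 to 0.66) and -0.19 at 6 weeks (-0.53 to 0.15). Their difference of -0.51 had an unadjusted p of 0.0393 and an adjusted p of 0.288.

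Il34 (gene 76527, chromosome 8, 110741829 to 110805949, minus strand), the other ligand of Csf1r, differed by a small and even amount. The 2-week controls held 12.4, 15.1 and 17.4 CPM, the 65 Gy libraries 20.7, 18.0 and 18.7 CPM, and the 75 Gy libraries 18.8, 19.0 and 18.8 CPM. Later, at 6 weeks, controls held 14.4, 15.5 and 13.3 CPM, the 65 Gy libraries 20.9 and 17.4 CPM, and the 75 Gy libraries 20.3, 17.8 and 16.98 CPM. All irradiated libraries lay above all controls of the same time. The log2 fold changes were 0.35 and 0.33 at 2 weeks and 0.41 and 0.35 at 6 weeks for 65 and 75 Gy, with adjusted p values of 0.0768, 0.0627, 0.0535 and 0.0373, each under the fold limit.

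Csf3 (gene 12985, chromosome 11, 98700183 to 98703631, plus strand) was at the edge of detection. The 2-week controls had 0 counts in all 3 libraries, the 65 Gy libraries 7, 0 and 0 counts, and the 75 Gy libraries 0, 9 and 13 counts. The 6-week controls had 0, 2 and 0 counts, the 65 Gy libraries 0 and 13 counts, and the 75 Gy libraries 9, 6 and 0 counts. Every irradiated group thus held a library with 0 counts. The 0 counts of the 2-week controls allow a pooled level of up to 0.0202 CPM, taking 3 counts over the group as the limit. This limit covers counting error only. At 2 weeks all 7 counts after 65 Gy were in library 3129, and 13 of the 22 after 75 Gy in library 3134, so no fold against the controls is given. The test over libraries did not pass the adjusted p in any comparison (0.134 for 75 Gy and 0.418 for 65 Gy at 2 weeks).

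Its receptor gene Csf3r (gene 12986, chromosome 4, 126023441 to 126044975, plus strand) fell in all 4 comparisons. The 2-week controls held 117, 168 and 148 CPM, the 65 Gy libraries 68.2, 60.2 and 68.1 CPM, and the 75 Gy libraries 35.7, 47.6 and 83.0 CPM. At 6 weeks the controls held 214, 162 and 167 CPM, the 65 Gy libraries 44.0 and 93.3 CPM, and the 75 Gy libraries 77.1, 66.5 and 52.0 CPM. No irradiated library reached the lowest control of its time. The log2 fold changes were -1.14 (SE 0.29, adjusted p = 0.0207) and -1.38 (SE 0.29, adjusted p = 0.00361) at 2 weeks for 65 and 75 Gy. At 6 weeks they were -1.40 (SE 0.34, adjusted p = 0.0128) and -1.47 (SE 0.29, adjusted p = 0.00145). The 65 Gy call at 2 weeks was lost without any 1 of libraries 3127, 3128, 3129, 3130 and 3131, with adjusted p values of 0.0518 to 0.073 and log2 fold changes of -1.02 to -1.17. The 65 Gy call at 6 weeks was lost without library 3138, at -0.95 with an adjusted p of 0.162.

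Library 3134 of the 75 Gy group at 2 weeks held the highest level of all 17 libraries for Csf1r, Csf2ra, Csf2rb and Csf2rb2. Library 3132 of the same group held the highest level of Csf2 and the lowest levels of these receptor genes among the irradiated libraries. The ligand and its receptor chains were thus highest in different libraries of 1 group. The summed level of 10 monocyte and interstitial macrophage markers was 2184 CPM in library 3134, 1094 CPM in library 3133 and 880 CPM in library 3132.

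Between the doses no member was called, at 2 weeks, at 6 weeks or as a mean of both, beside 0% of all genes tested (0 of 22052 genes in each). The lowest unadjusted p at 2 weeks was 0.0857, for Csf2rb2, with a log2 difference of 0.63 between 75 and 65 Gy (95% interval -0.1 to 1.35). At 6 weeks the lowest was 0.0471, for Csf2, where the 75 Gy libraries lay below both 65 Gy libraries by a log2 difference of -0.58 (95% interval -1.15 to -0.0084, adjusted p = 0.735). The number of members with an unadjusted p under 0.05 was 0 at 2 weeks, 1 at 6 weeks and 0 for the mean, and DESeq2 also called 0 members. Of 34906 genes, DESeq2 called 7 at 2 weeks, 14 at 6 weeks and 0 for the mean. For the mean of both times the intervals for Csf2ra, Csf2rb and Csf3r were -0.27 to 0.56, -0.24 to 0.64 and -0.61 to 0.30 on the log2 scale, so differences of that size between the doses cannot be told from none.

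Control lungs at 6 and 2 weeks differed in none of the members by the call, beside 0.576% of all genes. The lowest unadjusted p was 0.0704, for Csf2, whose 6-week controls all lay below the 2-week controls (log2 fold change -0.48, adjusted p = 0.374). The change of the radiation effect between 2 and 6 weeks was called for no member at 75 Gy, beside 0.254% of all genes, or at 65 Gy, beside 0.0136%. At an unadjusted p under 0.05 there were 2 members at 75 Gy, Csf2 and Csf1, and 0 at 65 Gy, and DESeq2 called 0 members in these comparisons too. Of 34906 genes, DESeq2 called 226 between the controls, and 302 at 75 Gy and 75 at 65 Gy for the change of effect.

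The genes whose levels over the 17 libraries were most like each member were ranked by Pearson's r of log2 CPM among 14475 genes, as a description, since the libraries share groups and the order changes with the measure. Csf2 was most like Marco (r = 0.94), a scavenger receptor of alveolar macrophages, then Arf6 and Ciao2b. With the log2 summed level of the 13 alveolar macrophage markers, which include Marco, Csf2 had r = 0.10. Csf2rb2 was most like Mpeg1 (r = 0.99), a pore-forming protein of macrophages, then Creg2 and Psap, and Csf2rb was most like Slc37a2, Sirpa and Psap (r = 0.99 each). Csf2ra was most like Fam20c, P2rx4 and Man2b1 (r = 0.97 each), and Csf1r most like Rnf19b, Hk3 and Pstpip2 (r = 0.97, 0.97 and 0.96). Csf3r was most like Mmp9 (r = 0.93), a neutrophil granule protease, Mxd1 and Padi4, the last an enzyme that modifies histones in neutrophils. Csf1 was most like Alg12, Sh3gl1 and Stat2 (r = 0.90, 0.90 and 0.89), Il34 most like Meak7, Dcaf4 and Pctp (r = 0.93, 0.93 and 0.92), and Csf3, with its near-zero counts, most like Timm44, Mark1 and Ttc39c (r = 0.76, 0.74 and 0.74). Among the members, Csf2rb and Csf2rb2 had r = 0.99 with each other, while Csf2 had r = 0.20 with its own alpha chain Csf2ra.

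The relatives that share the beta chain were a list of 4 genes, of which 3 could be tested and none was called. Il3, the only ligand of the chain that Csf2rb2 encodes, had 0 counts in all 17 libraries, which allows at most 0.0165 to 0.0252 CPM by group at 3 counts per group. Il3ra, its alpha chain, had log2 fold changes of 0.63 (65 Gy, adjusted p = 0.00678) and 0.81 (75 Gy, adjusted p = 0.000623) at 2 weeks, under the fold limit. At 6 weeks they were 0.18 and -0.06, with adjusted p values of 0.446 and 0.732. Il5ra, the IL-5 receptor alpha chain, had -0.17 (65 Gy, adjusted p = 0.782) and -0.99 (75 Gy, adjusted p = 0.0311) at 2 weeks. At 6 weeks it had -0.60 and -0.40, with adjusted p values of 0.251 and 0.308. Its level was low, with group means of 0.73 to 2.26 CPM.

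Of 4 inducers of colony-stimulating factors, 3 could be tested. Tnf rose at 2 weeks by 1.61 after 65 Gy and 1.97 after 75 Gy on the log2 scale (adjusted p = 0.000616 and 7.71e-05), and had 0.52 and 0.84 at 6 weeks, not called. Il1a rose by 1.28 after 75 Gy at 2 weeks and by 1.05 after 65 Gy at 6 weeks. Il1b was not called in any comparison. For 65 and 75 Gy its log2 fold changes were -1.07 and -0.90 at 2 weeks and -0.21 and 0.46 at 6 weeks. The list summed to 42.9 to 97.1 CPM in 2-week controls, 37.0 to 47.6 after 65 Gy and 34.2 to 77.3 after 75 Gy. For 75 Gy at 2 and 6 weeks, 2 and 0 inducers were called higher, beside 5.67% and 7.28% of all tested genes. For 65 Gy 1 was called at each time, beside 3.47% and 4.34%.

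Downstream of the receptors, 16 genes of signal transduction and feedback were tested, with medians of 0.30, -0.04, 0.27 and 0.06 for 75 Gy at 2 and 6 weeks and 65 Gy at 2 and 6 weeks. Called higher were 3, 2, 1 and 2 of them, beside 5.67%, 7.28%, 3.47% and 4.34% of all tested genes. None was called lower, beside 2.07%, 3.13%, 0.88% and 0.943%. Socs3, the feedback inhibitor that acts on the G-CSF receptor, rose in all 4 comparisons by 1.22 to 1.73 on the log2 scale. Its levels were 45.0 ± 6.69 CPM in 2-week controls and 105 ± 12.1 CPM after 75 Gy (SD, n = 3). Tyrobp, an adaptor of macrophage receptors, was called in 3 comparisons (1.31 to 1.65). Socs1 was called only for 75 Gy at 2 weeks (1.87). Stat5b, a transcription factor used by the GM-CSF receptor, had -0.66 after 75 Gy at 6 weeks (adjusted p = 0.000203), under the fold limit.

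Of 12 myeloid transcription factors, 5 were called higher and 1 lower for 75 Gy at 2 weeks, 3 and 0 for 65 Gy at 2 weeks, and 1 and 1 for each dose at 6 weeks. The shares of all tested genes called higher and lower at 2 weeks were 5.67% and 2.07% for 75 Gy and 3.47% and 0.88% for 65 Gy. At 6 weeks these shares were 7.28% and 3.13% for 75 Gy and 4.34% and 0.943% for 65 Gy. Bhlhe41, with Bhlhe40 a factor needed for alveolar macrophage self-renewal, went from 8.07 ± 1.53 CPM in 2-week controls to 30.0 ± 2.88 after 65 Gy and 40.5 ± 8.76 CPM after 75 Gy (SD, n = 3). At 6 weeks its controls held 30.7 ± 2.57 CPM and the 75 Gy libraries 37.3 ± 2.20 CPM. The difference of its 75 Gy effects was -2.05 (SE 0.23, adjusted p = 0.00431). Between the times, its mean level differed more in the controls than in the 75 Gy libraries. Marco, the gene most like Csf2, had log2 fold changes of 2.43 and 2.62 at 2 weeks for 65 and 75 Gy and of 1.74 and 0.27 at 6 weeks. The difference of its 75 Gy effects, -2.35 (SE 0.40, adjusted p = 0.02), was called. That of Csf2 was not.

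The list of surfactant production held 8 genes, of which Sftpd alone was called, for both doses at 6 weeks (1.03 after 65 Gy and 1.13 after 75 Gy). Of all tested genes, 4.34% and 7.28% were called higher in these comparisons. The other 7 were not called in any of the 4 comparisons. The medians of the list were -0.12 and 0.43 for 75 Gy and -0.05 and 0.30 for 65 Gy at 2 and 6 weeks.

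Markers of cells that carry these receptors were counted in the same comparisons. Of 10 monocyte and interstitial macrophage markers, 9, 9, 8 and 9 were called higher for 75 Gy at 2 and 6 weeks and 65 Gy at 2 and 6 weeks, and none lower. In that order, 5.67%, 7.28%, 3.47% and 4.34% of all tested genes were called higher and 2.07%, 3.13%, 0.88% and 0.943% lower. Trem2, a lipid receptor of macrophages, rose from 2.48 ± 0.513 CPM in 2-week controls to 48.8 ± 23.3 CPM after 75 Gy (SD, n = 3). The summed level of the list was 205 to 308 CPM in 2-week controls, 750 to 1003 after 65 Gy and 880 to 2184 after 75 Gy. At 6 weeks it was 191 to 220 CPM in controls, 897 to 914 after 65 Gy and 994 to 1266 after 75 Gy. Of 13 alveolar macrophage markers, 4 were higher and 2 lower for 75 Gy at 2 weeks, 6 and 2 for 75 Gy at 6 weeks, 3 and 3 for 65 Gy at 2 weeks, and 8 and 0 for 65 Gy at 6 weeks. Their summed level was 1070 to 1871 CPM in 2-week controls and 1596 to 2432 CPM in irradiated libraries at 2 weeks, with overlap, and 1041 to 1284 CPM against 2904 to 3541 CPM at 6 weeks. After 75 Gy at 6 weeks the log2 fold changes of Atp6v0d2, Lpl and Itgax were 2.27, 1.77 and 1.72, while that of Marco was 0.27 and not called. All markers of both lists had counts in every group. Their part in the levels of Csf1r, Csf2ra, Csf2rb and Csf2rb2 was not tested.

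Of 12 neutrophil markers, none was called higher, and 6, 4, 6 and 2 were called lower for 75 Gy at 2 and 6 weeks and 65 Gy at 2 and 6 weeks. The shares of all tested genes called lower were 2.07%, 3.13%, 0.88% and 0.943% in that order. Cxcr2, the chemokine receptor of neutrophils, fell from 36.2 ± 7.31 CPM in 2-week controls to 12.6 ± 2.41 after 65 Gy and 8.32 ± 0.791 CPM after 75 Gy (SD, n = 3). The summed level was 380 to 668 CPM in 2-week controls, 144 to 207 after 65 Gy and 127 to 247 after 75 Gy, and 374 to 708 CPM in 6-week controls, 134 to 315 after 65 Gy and 237 to 328 after 75 Gy. Elane had 0 counts in the 75 Gy group at 6 weeks, and the other markers had counts in every group. The part of neutrophils in the fall of Csf3r was not tested.

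**Figure D4:**
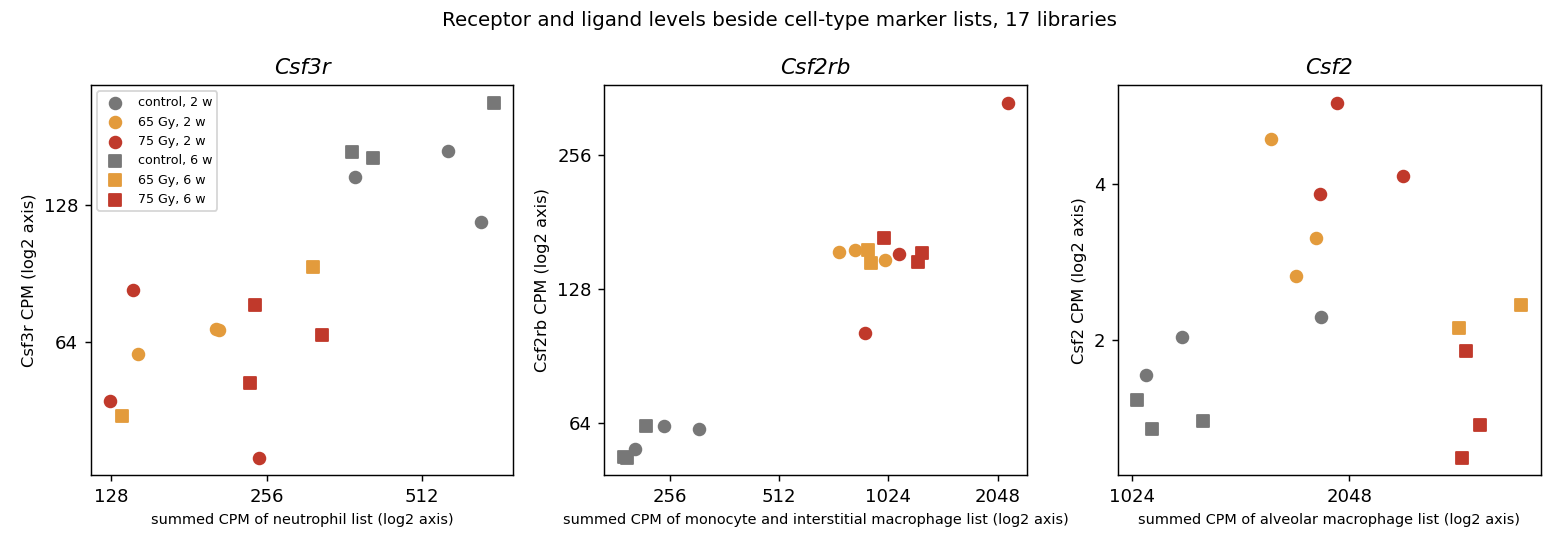
Each point is 1 of 17 libraries on log2 axes, with the summed CPM of a marker list along the bottom and the CPM of Csf3r, Csf2rb or Csf2 up the side. Csf3r and neutrophil markers are both highest in the control groups, but within groups their order varies. Library 3126 among the 2-week controls and library 3132 among the 75 Gy libraries at 2 weeks have the lowest Csf3r and the highest neutrophil sum. Library 3135 is highest in both among the 6-week controls. Csf2rb and monocyte and interstitial macrophage markers are both highest in library 3134, and Csf2 is highest at 2 weeks while alveolar macrophage markers are highest at 6 weeks.

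The other marker lists covered further cells that a piece of lung can hold. Shares of all tested genes called higher at 6 weeks were 7.28% for 75 Gy and 4.34% for 65 Gy. Those called lower at 2 and 6 weeks were 2.07% and 3.13% for 75 Gy and 0.88% and 0.943% for 65 Gy. Of 5 mast cell markers, 4 were higher for 75 Gy and 3 for 65 Gy at 6 weeks, and 1 (Mcpt4) was lower for 75 Gy at 2 weeks. Of 4 plasma cell markers, 3 and 1 were higher at 6 weeks for 75 and 65 Gy, led by Jchain (4.30 and 3.80 on the log2 scale), and of 5 T cell markers 2 and 1. Of 5 endothelial markers, 4 were lower for 75 Gy at 6 weeks and 1, Tek, in each other comparison. Of 4 erythroid markers 2 were lower for 75 Gy at 6 weeks, and of 4 cardiac muscle markers 1, Actc1, was lower for 75 Gy at 2 weeks. None of the 3 eosinophil, 6 fibroblast and 5 adipocyte markers was called in the 4 comparisons. The adipocyte list nevertheless had a median log2 fold change of -2.91 for 75 Gy at 2 weeks, with -2.93 for Adipoq, -2.91 for Cfd, -2.64 for Plin1 and -3.80 for Lep (adjusted p = 0.0531, 0.069, 0.0633 and 0.0762 in that order). Its summed level was 69.8 to 78.5 CPM in 2-week controls and 1.40 to 21.3 CPM after 75 Gy, with no overlap, while the 65 Gy libraries ran from 6.68 to 142 CPM. The part of fat tissue in the members' levels was not tested.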

How the data were processed

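The authors deposited a table of raw read counts per gene for 17 libraries. Per their methods, stranded libraries were sequenced as paired reads of 100 bases, trimmed, aligned to GRCm38.p6 with HISAT and assembled with StringTie; how multi-mapping reads entered the counts is not given in the sources used here. Deposited counts were tested with edgeR 4.0.16 in R 4.3.3, in 1 quasi-likelihood fit of all libraries with a term per group, TMM factors, filterByExpr (minimum count 10, minimum total 15) and Benjamini-Hochberg adjustment over 22052 genes. A gene was called at an adjusted p of at most 0.05 and a log2 fold change of at least 1 in size. Intervals are at 95%. DESeq2 1.42.0 was an alternative. The script was tested on simulated counts. Gene spans are RefSeq's on GRCm38.p6; coding sequences and lengths (exon unions) are GENCODE's, so levels per kilobase can differ under the counting annotation. The 9 members and 17 gene lists were chosen with earlier results of these data known. All members were named, with up to 4 genes per list, those called in most of the 4 comparisons with controls, and the 3 genes most like each member. Values of 1 listed gene are not reported here.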

Additional observations from a re-analysis of the deposited data

How the results depend on the processing

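RLE or upper-quartile factors, no filter on low counts, DESeq2, and summed counts of Csf2rb and Csf2rb2 left each member's call against the controls as it was, Csf3 aside, for which no fitted fold is given. With no fold limit, the members past the test were 5 for 75 Gy at 6 weeks and 5 for 65 Gy at 2 weeks, against 3 each. Fitting only the groups compared lost the call of Csf2ra for 75 Gy at 2 weeks and took the calls over all genes there from 1707 to 834. Leaving out 1 library at a time gave 4 to 5 members called for 75 Gy at 2 weeks, 3 for 75 Gy at 6 weeks, and 2 to 3 for 65 Gy at either time. It turned the sign of Csf2 for 75 Gy at 6 weeks (range -0.16 to 0.21) and of Csf1 for 65 Gy at 6 weeks (range -0.18 to 0.039), both uncalled. Of 48 differences between doses, times or radiation effects for the 8 members other than Csf3, 28 changed sign in at least 1 setting and none was called in any, the lowest adjusted p being 0.0568. Over all genes, calls for 75 Gy at 2 weeks fell to 1097 without library 3134, and calls for 65 Gy at 6 weeks went from 1164 to 604 and 743 without library 3138 or 3140, where the lone library is assumed to vary like the other groups. Ranking by Spearman's rho kept at most 1 of the 3 genes most like any member. No paired analysis was possible because library numbers are not shared between groups. Depth limits Csf3, with at most 13 counts in a library.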
